A study of Mus musculus with 6 samples.

Results

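The 9 genes described here encode the core proteins and assembly factors of small nucleolar ribonucleoproteins (snoRNPs): Fbl, Nop56 and Nop58 of the box C/D particles, Dkc1, Gar1, Nhp2 and Nop10 of the H/ACA particles, and Naf1 and Nolc1, which act in assembly. They were chosen by name, 9 of 21883 protein-coding genes. This choice, like that of the other pathway genes below, was made with earlier results of these data known. Peaks were assigned to the 9 genes where a summit lay within 1000 bp of either annotated end, in the gene body, or nearer to the gene than to any other coding gene. Binding of c-Myc, a transcription factor that pairs with Max on DNA, was mapped by chromatin immunoprecipitation and sequencing (ChIP-seq) in PB115, PB119 and PB120, cell lines grown from mouse lung cancer. Each line had 1 ChIP library made with a c-MYC antibody and 1 input library of sonicated chromatin, 6 samples in all, and each peak list was called on 1 ChIP library against the input of the same line. The labels give no genotype, treatment, age or clone history for the lines, so nothing further can be said of them as models. There was no replicate, so no difference between lines can be set against a spread between libraries.

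Small nucleolar RNAs guide the chemical modification of ribosomal RNA by base pairing with it. In box C/D particles Fbl methylates the ribose of the target nucleotide while Nop56 and Nop58 form the scaffold, and in H/ACA particles Dkc1 converts the target uridine to pseudouridine with Nop10, Nhp2 and Gar1 bound beside it. Ribosome production in the nucleolus depends on these particles, and genes of ribosome production are a long-known class of MYC targets.

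PB115 had 7830 peaks, PB119 13527 and PB120 5168, at 40494386, 40726886 and 32299364 ChIP tags after removal of repeated positions. The weakest listed summits held 24, 19 and 21 ChIP fragments in the same order. Peak height is given below as ChIP fragments at the summit per 1000000 ChIP tags (FPM), with an exact Poisson 95% interval that covers counting error only. Fold is the authors' ratio of ChIP pileup to local input background, used to rank peaks within a list. Its percentile is the share of peaks of the same list with a lower fold.

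All 9 snoRNP genes carried a c-Myc summit no more than 1000 bp from an end in PB115 and in PB119, and 8 of the 9 had one in PB120, where Dkc1 had none. The share of all protein-coding genes with such a summit was 23.6% for PB115, 35.3% for PB119 and 16.4% for PB120. Binding in all 3 lines was found at 8 of the 9 snoRNP genes and at 14.4% of coding genes. The strongest gene-end peaks of the 3 lines overlapped at 7 of the 9 snoRNP genes, against 13% of coding genes. The others were Dkc1, without a PB120 peak, and Fbl. At Fbl the peaks of the 3 lines overlapped at each end. Its peak of highest fold lay at the lower end in PB115 and PB119 and at the higher end in PB120. No peak was assigned to a snoRNP gene by nearness alone. The 37 peaks assigned fell into 13 separate sites, of which 10 were listed in all 3 lines, 2 in PB115 and PB119, and 1 in PB119. The matching shares over all sites of the 3 lists were not computed.

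The snoRNP genes also ranked high within each list. The median percentile of their strongest gene-end peak was 99.0 for both PB115 and PB119 and 93.9 for PB120, against 58.0, 63.9 and 54.1 over all bound coding genes. In PB115 and in PB119, 7 of the 9 lay in the top 10% of the list by fold, where 13.0% and 15.6% of bound coding genes did. In PB120, 5 of the 8 bound snoRNP genes lay there, against 11.5% of bound coding genes. Median height was 3.26 FPM in PB115, 3.71 in PB119 and 2.48 in PB120 over the snoRNP genes, and 1.28, 1.20 and 1.27 over all bound coding genes.

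**Figure D1:**
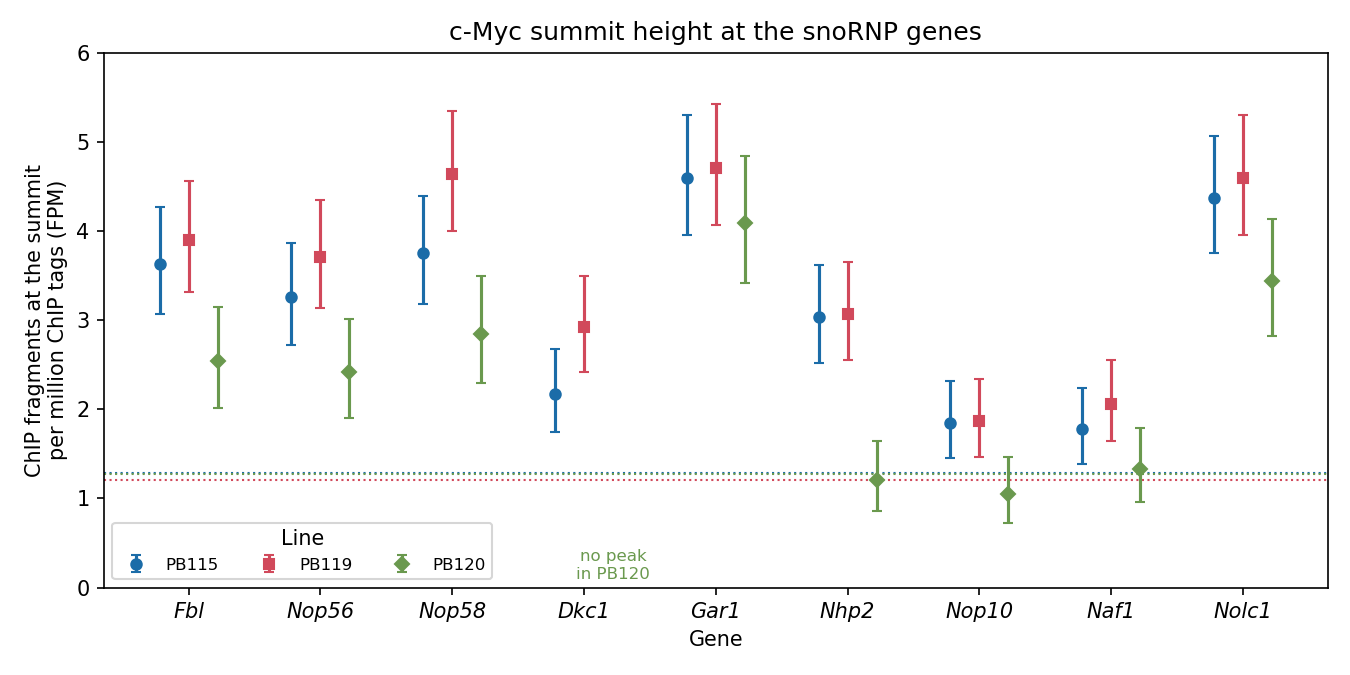
Height of the strongest gene-end c-Myc peak at each snoRNP gene (vertical axis, ChIP fragments at the summit per 1000000 ChIP tags, FPM) in PB115, PB119 and PB120, with 1 library a line and exact Poisson 95% intervals as bars. The Fbl peak shown is at the lower end of the gene in PB115 and PB119 and at the higher end in PB120. Dotted lines mark the medians over all bound coding genes, 1.28 for PB115, 1.20 for PB119 and 1.27 for PB120, and Gar1, Nolc1 and Nop58 stand highest in every line while Dkc1 has no PB120 peak.

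The promoter sequences below are shown because the summits of Nop58, Nhp2 and Nop10 lay between 4 and 32 bp from the centre of an E-box-like hexamer in them, Nolc1 holds the most such hexamers, and Gar1, with the tallest peak in every line, holds none. They come from RefSeq (GRCm38.p6, the assembly behind mm10) and matched 7 of the 9 genes, while Fbl and Naf1 were not matched. Each runs 5′ to 3′ on the gene's own strand, from 250 bases before the start listed for the promoter to 30 bases from it on. That start differs from the annotated gene boundary used for distances at Nop56 (130274412 against 130274367), Nop58 (59685006 against 59684961) and Gar1 (129831396 against 129831407). Capitals mark matches to any of 4 hexamers. The canonical E-box, which is bound by MYC with MAX, reads CACGTG on both strands. A variant of it that was also searched is CACGCG, with the other strand of that site reading CGCGTG in the printed lines. The other variants were CATGCG, where a site on the opposite strand is printed as CGCATG in this orientation, and lastly CACGAG, where a site on the opposite strand is printed as CTCGTG in this orientation. No match of 1 motif overlapped that of another in these promoters.
Nop58, chr1:59684756-59685035, plus strand: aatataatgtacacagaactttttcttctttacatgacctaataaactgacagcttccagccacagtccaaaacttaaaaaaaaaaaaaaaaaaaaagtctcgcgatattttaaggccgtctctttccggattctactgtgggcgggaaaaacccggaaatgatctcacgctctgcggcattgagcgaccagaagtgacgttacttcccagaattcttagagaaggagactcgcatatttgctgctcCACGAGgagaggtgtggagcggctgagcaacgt
Nhp2, chr11:51619523-51619802, plus strand: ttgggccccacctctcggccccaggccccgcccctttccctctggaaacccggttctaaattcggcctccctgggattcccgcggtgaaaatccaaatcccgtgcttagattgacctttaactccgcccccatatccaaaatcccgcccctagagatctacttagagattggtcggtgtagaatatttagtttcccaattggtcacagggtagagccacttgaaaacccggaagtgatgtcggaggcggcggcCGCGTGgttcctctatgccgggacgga
Nop10, chr2:112261676-112261955, plus strand: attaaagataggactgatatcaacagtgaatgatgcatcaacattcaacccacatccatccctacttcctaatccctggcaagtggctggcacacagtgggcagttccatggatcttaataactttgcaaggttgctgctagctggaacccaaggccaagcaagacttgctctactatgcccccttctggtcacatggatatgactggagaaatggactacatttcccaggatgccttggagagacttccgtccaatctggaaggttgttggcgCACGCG
Nolc1, chr19:46075597-46075876, plus strand: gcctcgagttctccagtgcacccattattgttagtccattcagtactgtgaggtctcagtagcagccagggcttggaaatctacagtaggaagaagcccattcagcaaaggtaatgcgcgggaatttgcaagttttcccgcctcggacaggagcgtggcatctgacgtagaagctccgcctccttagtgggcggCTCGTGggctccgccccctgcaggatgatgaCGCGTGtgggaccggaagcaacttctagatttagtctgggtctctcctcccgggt
Gar1, chr3:129831367-129831646, minus strand: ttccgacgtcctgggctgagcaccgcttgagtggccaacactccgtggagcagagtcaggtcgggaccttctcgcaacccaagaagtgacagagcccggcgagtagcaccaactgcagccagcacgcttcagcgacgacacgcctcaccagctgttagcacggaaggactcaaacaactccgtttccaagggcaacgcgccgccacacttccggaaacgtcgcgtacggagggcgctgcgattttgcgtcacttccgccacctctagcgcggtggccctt

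Over the whole table window, from 250 bases before the start listed for the promoter to 50 after it, no matched snoRNP promoter held CACGTG. By the rough limit of 3 over the number of promoters, which is not an exact interval, that count of 0 of 7 allows a share of up to 42.9%. CACGTG was found in 17.2% of 2656 promoters of coding genes bound in all 3 lines and in 7.90% of 17491 coding promoters, with 1 promoter counted per gene. At least 1 of the 4 motifs was found in 6 of the 7 snoRNP promoters, in 56.1% of the promoters bound in all 3 lines and in 28.8% of all coding promoters. CACGCG was found in 3 of the 7 (Nhp2, Nop10 and Nolc1), against 29.0% and 12.2%, and CACGAG in 3 of the 7 (Nop56, Nop58 and Nolc1), against 12.5% and 7.25%. CATGCG was found in Dkc1, against 14.9% and 7.63%. In Nop58 the centre of CACGAG lay 4 bp from the PB115 summit, 32 bp from the PB119 summit and 8 bp from the PB120 summit. In Nhp2 the centre of CGCGTG lay 8, 12 and 10 bp from the summits of PB115, PB119 and PB120, and in Nop10 the centre of CACGCG lay 14, 6 and 24 bp from them. The Nop56, Dkc1 and Nolc1 matches were farther away, between 60 and 802 bp. In Nop58, Nhp2 and Nop10 the hexamers began at -3, 3 and 24 bp from the listed start, near which the summits also lay. The same distances at other bound promoters are not given here, so this closeness has no baseline. The window ends short of the summits of Dkc1, Gar1 and Nolc1 and of the PB115 summit of Nop56, which lay deeper in the gene, so what sequence lies under those summits was not analysed here. The median GC content of the 7 promoters was 55.3%, close to the 56.3% of all coding promoters and below the 63% of those bound in all 3 lines. Their CpG ratio, observed over expected, ranged between 0.384 in Nop10 and 1.10 in Nop58, with a median of 0.791, against 0.860 for promoters bound in all 3 lines and 0.576 for all coding promoters.

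Among the box C/D genes, Fbl, the methyltransferase gene on chromosome 7 at 28168893 to 28179269, was bound at both ends in every line. Near the lower coordinate, the summits lay 849, 842 and 857 bp inside the gene in PB115, PB119 and PB120, and within 1000 bp of the long noncoding RNA gene Gm31024. Its height was 3.63 (3.07 to 4.27) FPM in PB115, 3.90 (3.32 to 4.56) in PB119 and 2.38 (1.88 to 2.98) in PB120. In FPM, the PB120 interval therefore lay below both others. The peak ranked 33 of 7830 by fold for PB115, 92 of 13527 for PB119 and 107 of 5168 for PB120. The PB119 peak ran on for 900 bp, and over part of its length PB120 listed a separate weak peak, with its summit 1313 bp inside the gene and 1.05 FPM. Near the higher coordinate, the summits lay 118, 118 and 109 bp outside Fbl in PB115, PB119 and PB120, between Fbl and Dyrk1b, a protein kinase gene. The Dyrk1b end was nearer to these summits than the Fbl end, at 60, 60 and 69 bp. Height at this second site was 2.72 (2.23 to 3.27) in PB115, 2.82 (2.33 to 3.39) in PB119 and 2.54 (2.02 to 3.15) in PB120, so the intervals of the 3 lines overlapped. Which of the genes the site serves cannot be told from these data. PB119 alone listed one more, weak site 801 bp outside the same end and inside Dyrk1b, with 0.565 FPM.

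Nop56, a scaffold gene on chromosome 2 at 130274367 to 130279313, had a wide peak over its start and a second peak inside the gene in every line. The start peaks of PB115, PB119 and PB120 spanned 1179, 1617 and 1163 bp, each in the top 1% of its list by length. Its height was 3.26 (2.73 to 3.87) FPM in PB115, 3.71 (3.14 to 4.35) in PB119 and 2.41 (1.91 to 3.01) in PB120. In FPM, the PB119 and PB120 intervals did not overlap. The inner summit lay 1513, 1505 and 1496 bp into the gene in PB115, PB119 and PB120, with heights of 2.77 (2.28 to 3.33), 2.80 (2.31 to 3.36) and 1.92 (1.47 to 2.46). These 3 intervals overlapped. The gene contains 5 annotated snoRNA genes, and the PB119 inner peak overlapped Snord110, a box C/D snoRNA gene at 130275515 to 130275573. The nearest inner summit lay 290 bp from it, and 357 bp lay between the nearest summit and the unnamed snoRNA gene LOC115489609 on its other side.

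Nop58, the other scaffold gene, on chromosome 1 at 59684961 to 59711510, had 1 peak per line. The summits lay 48, 76 and 36 bp inside the gene in PB115, PB119 and PB120, close to the CACGAG shown above in PB115 and PB120 and farther from it in PB119. Relative to the start listed for the promoter, these summits lay at 3, 31 and -9 bp. Height was 3.75 (3.18 to 4.40) FPM in PB115, 4.64 (4.00 to 5.35) in PB119 and 2.85 (2.30 to 3.49) in PB120. In FPM, the PB119 interval lay above that of PB120 and overlapped that of PB115. With a rank of 27 of 13527, this peak was the highest of the snoRNP genes by fold in PB119, and it ranked 82 of 7830 in PB115 and 434 of 5168 in PB120. The 4 snoRNA genes inside Nop58 overlapped no peak, and the nearest lay 6921 bp from a summit.

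**Figure D2:**
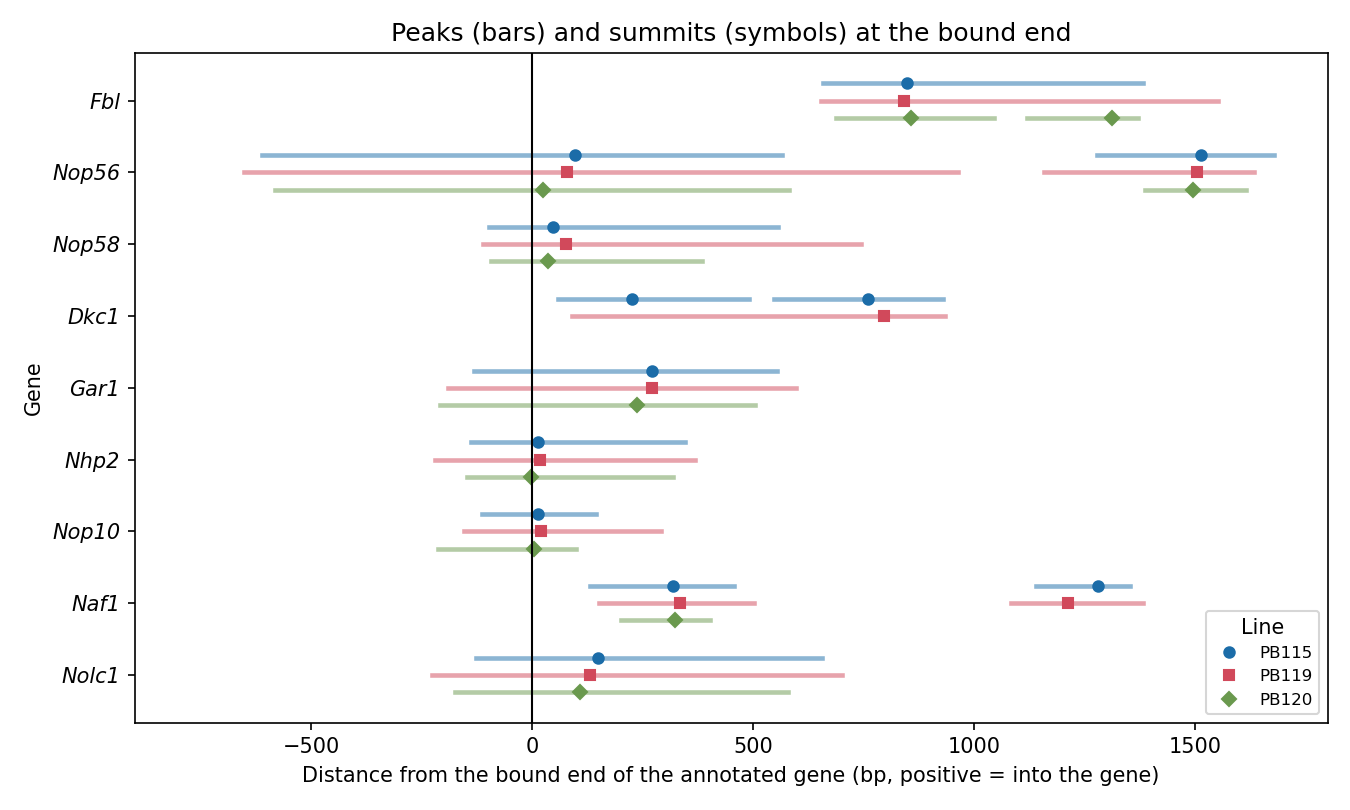
Peaks (bars, first to last base) and summits (symbols) of PB115, PB119 and PB120 at the end of each snoRNP gene that holds its strongest PB119 peak; the horizontal axis is the distance from that annotated end in bp, positive into the gene. Except for the PB115 summit at 225 bp in Dkc1 and the PB120 summit at 1313 bp in Fbl, each summit lies close to those of the other lines with a peak there, and the Fbl peaks near Dyrk1b lie beyond the plotted range.

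Of the H/ACA genes, Dkc1, which encodes the pseudouridine synthase dyskerin, also a part of telomerase, was the exception. It lies on chromosome X at 75095854 to 75109776. PB115 listed peaks with summits 225 and 759 bp inside the gene, at heights of 2.17 (1.74 to 2.68) and 2.47 (2.01 to 3.004) FPM. PB119 listed a single peak of 844 bp across both, with its summit 795 bp inside and a height of 2.92 (2.42 to 3.50). The snoRNA gene Gm25520 inside Dkc1 lay 4760 bp from the nearest summit and under no peak. PB120 listed no peak in or within 5000 bp of Dkc1. A summit in PB120 needed 21 fragments, or 0.650 FPM, to pass the authors' cutoff at the median input background of its chromosome X peaks, and 34 fragments, or 1.05 FPM, at the highest background among them. A site in PB120 as tall as those of PB115 or PB119 would thus have passed at these backgrounds, while one below 0.650 FPM at the median background, or below 1.05 FPM at the highest, was not detectable. A summit in PB115 and PB119 with none in PB120 was found at 8.97% of coding genes. Among genes bound in both PB115 and PB119, 32 of 55 (58.2%) on chromosome X lacked a gene-end summit in PB120, against 38.2% of 5060 on the autosomes. Chromosome X held 1.07% of all PB115 peaks, 1.41% of PB119 peaks and 0.697% of PB120 peaks, and the part of this in the result at Dkc1 was not tested.

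Gar1, which encodes a small protein at the catalytic side of the H/ACA particle, had the tallest peak of the 9 genes in every line. The gene lies on chromosome 3 at 129824912 to 129831407, minus strand, and the summits lay 270, 272 and 236 bp inside its annotated start in PB115, PB119 and PB120. Height was 4.59 (3.96 to 5.30) FPM in PB115, 4.71 (4.07 to 5.43) in PB119 and 4.09 (3.42 to 4.85) in PB120. The intervals of the 3 lines overlapped, and the heights differed least between lines at this gene and at the Fbl site near Dyrk1b. By fold the peak ranked 7 of 7830 for PB115, 30 of 13527 for PB119 and 79 of 5168 for PB120.

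Nhp2 is an RNA-binding subunit gene on chromosome 11 at 51619773 to 51623718. Of the 7 snoRNP genes whose strongest peaks overlapped in all 3 lines, it differed most in height between PB120 and the other lines. Dkc1, without a PB120 peak, is not among these. The summits lay 14 and 17 bp inside the gene in PB115 and PB119 and 4 bp outside it in PB120. Height was 3.04 (2.52 to 3.62) FPM in PB115, 3.07 (2.55 to 3.66) in PB119 and 1.21 (0.859 to 1.65) in PB120. In FPM, the PB120 interval lay well below both others. On the log2 scale, PB115 over PB120 was 1.33, higher than at 99.6% of 2933 coding genes with overlapping peaks, and PB119 over PB120 was 1.35, higher than at 98.0% of 3300. By fold, PB115 had it at percentile 95.4, PB119 at 96.1 and PB120 at 64.3. With 1 library a line, this is a difference between libraries and not shown to be one between lines.

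Nop10, the gene of the smallest H/ACA core protein, on chromosome 2 at 112261926 to 112262898, was the weakest of the H/ACA genes wherever it was bound. The summits lay 13, 20 and 3 bp inside the gene in PB115, PB119 and PB120. Height was 1.85 (1.46 to 2.32) FPM in PB115, 1.87 (1.47 to 2.34) in PB119 and 1.05 (0.729 to 1.47) in PB120, and the intervals of PB115 and PB119 reached that of PB120 only at their lower limits. By fold, PB115 had it at percentile 85.0, PB119 at 54.0 and PB120 at 5.48, near the bottom of the PB120 list. The PB120 peak is lost at a stricter p of 1e-20, which leaves 7 of the 9 snoRNP genes bound in PB120.

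Of the assembly genes, Nolc1 resembled Gar1 and Naf1 resembled Nop10 in height. Nolc1 encodes Nopp140, a phosphoprotein that binds snoRNPs in the nucleolus and in Cajal bodies, and lies on chromosome 19 at 46075847 to 46085543. Its summits lay 148, 130 and 107 bp inside the gene in PB115, PB119 and PB120. Height was 4.37 (3.75 to 5.06) FPM in PB115, 4.59 (3.96 to 5.30) in PB119 and 3.44 (2.83 to 4.14) in PB120, with overlapping intervals. It ranked 27 of 7830 by fold for PB115, 33 of 13527 for PB119 and 194 of 5168 for PB120.

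Naf1 encodes the factor that occupies the place of Gar1 in immature H/ACA particles, and lies on chromosome 8 at 66859943 to 66890564. The summits nearest to its lower end lay 319, 334 and 322 bp inside the gene in PB115, PB119 and PB120. Height there was 1.78 (1.39 to 2.24) FPM in PB115, 2.06 (1.65 to 2.55) in PB119 and 1.33 (0.963 to 1.79) in PB120, with overlapping intervals. A second site, 1280 bp into the gene in PB115 and 1213 bp in PB119, had heights of 1.38 (1.04 to 1.80) and 1.67 (1.30 to 2.12), and PB120 listed no peak there. At least 2 separate peaks near an end or in the body were listed for 4 of the 9 snoRNP genes in PB115 (Fbl, Nop56, Dkc1 and Naf1), 3 in PB119 and 2 in PB120, against 6.25%, 13.4% and 2.85% of coding genes.

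Across the 9 genes the order of heights was similar in the 3 lines. Gar1 came highest in each, followed by Nolc1 and Nop58, whose order differed in PB119, then Fbl and Nop56. Fbl was taken at its peak of highest fold, the lower end in PB115 and PB119 and the Dyrk1b end in PB120. Its lower-end PB120 peak, at 2.38 FPM, lay just below Nop56 at 2.41. The lowest were Nop10 and Naf1 in PB115 and PB119, and Nop10 and Nhp2 in PB120. The intervals of neighbours in this order overlapped, except those of Nop56 and Naf1 in PB120, so most steps were not marked by separate intervals. The highest was 2.58 times the lowest in PB115, 2.53 times in PB119 and 3.88 times in PB120.

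In FPM, heights were highest in PB119 and lowest in PB120 at every shared snoRNP site. The Poisson intervals overlapped at most of these sites for each pair of lines, which alone does not place a difference within counting error. The intervals of PB115 and PB119 overlapped at all 12 shared sites. Those of PB115 and PB120 were separate at 2 of 10 sites (Fbl near its lower end, and Nhp2), and those of PB119 and PB120 at 4 of 10 (the same 2 and the starts of Nop56 and Nop58). How often intervals were separate over all shared peaks was not computed, so these counts have no baseline. Over the genes whose strongest peaks overlapped, the median log2 ratio of PB115 over PB119 was -0.10 for 9 snoRNP genes and -0.22 for 4870 coding genes. PB115 over PB120 gave 0.42 for 7 snoRNP genes and 0.20 for 2933 coding genes, and PB119 over PB120 gave 0.63 for 7 and 0.36 for 3300. Over these coding genes, PB115 was above PB119 at 17.4% and above PB120 at 65.3%, and PB119 was above PB120 at 75.7%. These orders depend on the scale: relative to the median height of peaks common to all 3 lines, PB115 exceeded PB119 at 7 of the 9 genes, and PB119 exceeded PB120 at 5 of 7, with Gar1 at -0.22 and Nolc1 at -0.00495. PB115 remained above PB120 at 7 of 7, though at Gar1 by 0.00444 only. The separate intervals counted above are in FPM and were not computed on this other scale. On it, the log2 ratio of PB119 over PB120 was 0.20 instead of 0.62 at Nop56. At Nop58 it was 0.28 instead of 0.70, and at Nhp2 0.92 instead of 1.35. For PB115 over PB119, the Dkc1 ratio set the PB115 summit of higher fold, 225 bp inside, against the PB119 summit 795 bp inside. The taller PB115 summit 759 bp inside Dkc1 was not used in it.

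**Figure D3:**
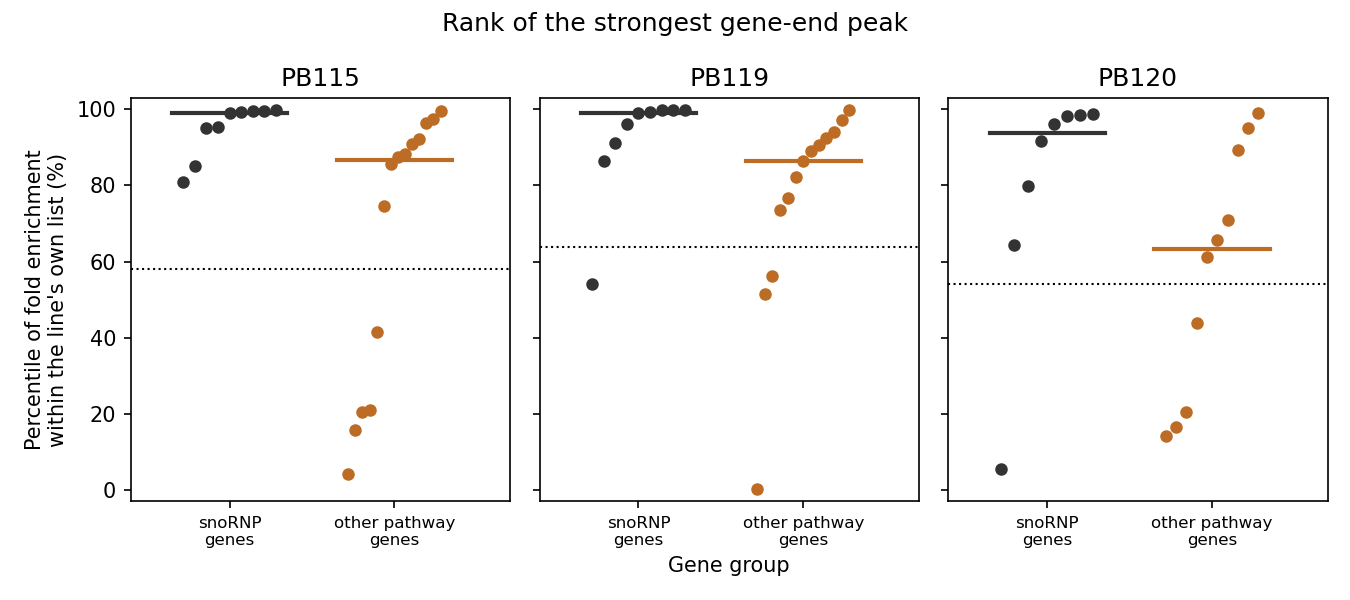
Percentile of fold within the line's own list for the strongest gene-end peak of each bound gene, for the 9 snoRNP genes and 18 other snoRNP pathway genes, in PB115, PB119 and PB120; solid bars are group medians and the dotted line is the median of all bound coding genes. The snoRNP medians of 99.0, 99.0 and 93.9 lie above the other pathway genes at 86.6, 86.4 and 63.4, and among the 9 snoRNP genes Nop10 is the low point in PB119 and PB120.

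The authors' fold gave another order in places where the input background was high. At the Nop56 start PB115 had a fold of 30.2, PB119 of 17.7 and PB120 of 21.4, although the height was greatest in PB119. The local background there was 1.30 times the genome-wide level in PB115, 3.53 times in PB119 and 1.39 times in PB120. In PB119 it equalled 7 input fragments (Poisson interval 2.81 to 14.4), where the genome-wide level was 1.98 fragments. Nop10 likewise had a background of 3.02 times the genome-wide level in PB119, 6 input fragments, and of 2.77 times in PB120, 4 input fragments. Both genes lie on chromosome 2, whose PB119 peaks had a median background of 1.51 times the genome-wide level, equal to the median of the whole list. In PB120, the backgrounds of Nop58, Gar1, Nop10 and Nolc1 were each 4 input fragments, and those of Fbl, Nop56 and Naf1 each 2. The folds of these peaks therefore rest on a few input fragments each.

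**Figure D4:**
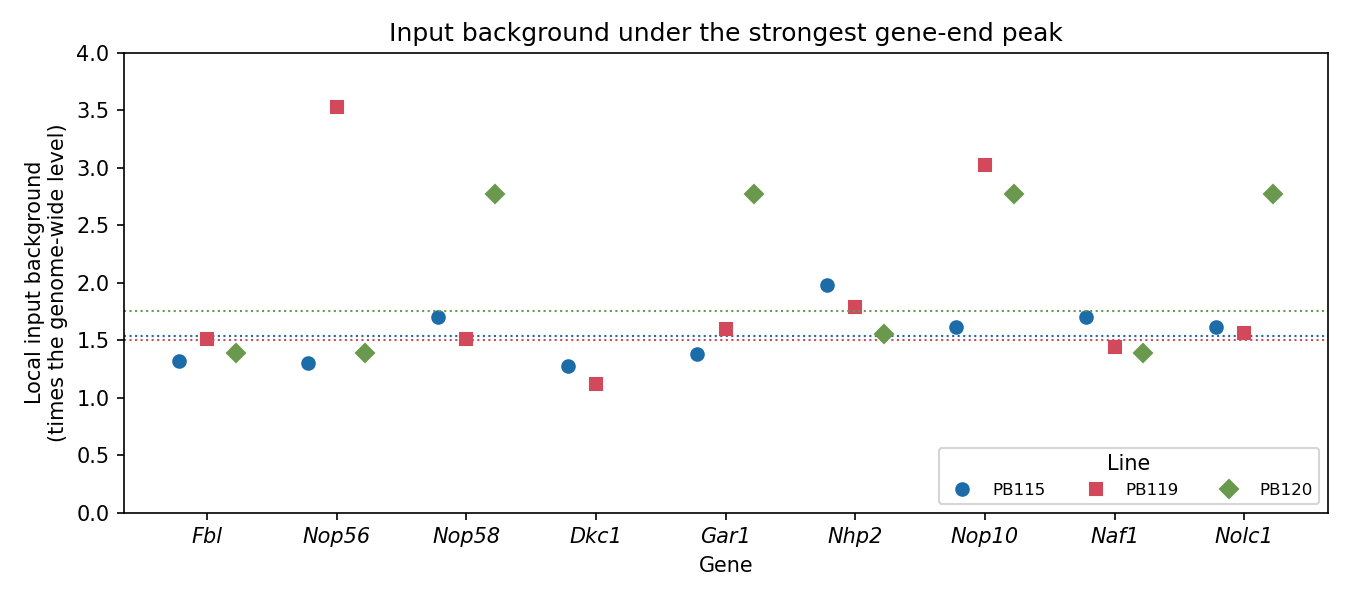
Local input background under the strongest gene-end peak of each snoRNP gene in PB115, PB119 and PB120 (vertical axis, times the genome-wide input level of the line), with dotted lines at the medians over all bound coding genes, 1.54, 1.50 and 1.75. Nop56 at 3.53 and Nop10 at 3.02 stand above the other genes in PB119, and Nop58, Gar1, Nop10 and Nolc1 share 2.77 in PB120.

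Other genes of the pathway were bound less uniformly. Of 18 genes for further particle proteins, assembly factors and nuclear partners, 14 had a gene-end summit for PB115, 13 for PB119 and 10 for PB120, and 9 had one in all 3 lines. Their median percentile was 86.6 for PB115, 86.4 for PB119 and 63.4 for PB120. Ncl, the nucleolin gene, ranked highest with percentiles of 99.6, 99.9 and 99.1 in PB115, PB119 and PB120. Coil, which encodes the Cajal body scaffold coilin, had 96.5, 97.1 and 20.5, and Wrap53, whose protein brings H/ACA RNAs to Cajal bodies, had 97.4, 86.4 and 95.2. Snu13, the remaining box C/D core protein gene, had a summit in PB115 and PB119, at percentiles of 74.5 and 82.2, and none in PB120. Znhit3, Shq1 and Phax also lacked one in PB120, and Npm1 lacked one in PB119, although both Phax in PB120 and Npm1 in PB119 had a summit farther inside the gene. Pih1d1, Rpap3, Ruvbl2 and Smn1 had no gene-end summit in any line. Among these, Pih1d1 and Ruvbl2 had a summit in the gene body in all 3 lines and Smn1 in PB115 and PB119, while Rpap3 had none.

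The genes most like the snoRNP medians in all 3 percentiles, out of the bound coding genes outside these lists, were Eef1akmt3 and Mettl1, which share a peak, and Foxp4. Eef1akmt3 and Mettl1, a lysine and a tRNA methyltransferase gene, had percentiles of 99.1 for PB115, 98.8 for PB119 and 93.6 for PB120, at a distance of 0.403 percentile points from the medians. Foxp4, a forkhead transcription factor gene, had 98.5, 99.2 and 93.9, at a distance of 0.547. The likeness is a Euclidean distance over 3 libraries.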

How the data were processed

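The authors deposited 1 peak list per ChIP library. Bowtie, SAMtools, MACS2 and build mm10 are named in the submitters' processing notes. Per the file headers, MACS 2.1.0.20140616 called each ChIP against its input at a p of 1e-10, scaled the larger library down and kept 1 tag a position. The deposited pileup is a signal, ChIP fragment coverage at the summit. Divided by the scaling it gave whole fragments, within 0.02, at 100% of peaks. The deposited fold is a ratio with 1 added to both terms, from which the input background was recovered. The deposited −log10 p-value is a Poisson p-value, and its recomputed values had a median difference of 0.00154 or less. The −log10 q-value column, which the authors deposited although the headers say it is not calculated, was not used. Genes came from a RefSeq table without strand (GRCm38.p6). A gene's strongest peak is that of highest fold. Promoters and their strand came from RefSeq.

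The members and lists were chosen with earlier results of these data known. All 9 members are named. Of the other pathway genes, those lacking a gene-end summit in some line and the 3 of highest median percentile are named. The 3 genes nearest to the members' medians are named as most alike. No test between lines was possible at 1 library a line. The code for gene assignment and fragment recovery was checked on simulated data, with summits planted only outside the lower end of genes. Python 3.11.15, pandas 2.3.3 and scipy 1.17.1 were used.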

Additional observations from a re-analysis of the deposited data

How the results depend on the processing

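The number of snoRNP genes with a gene-end summit stayed within 1.5 times its reported value, and so did the number with overlapping strongest peaks, under all alternatives run: windows of 500 and 5000 bp, summits in the gene body, a p of 1e-20, equal list lengths, leaving out a line, 50% overlap and summits within 100 bp. Counts were 9 throughout in PB115, 8 or 9 in PB119, where Dkc1 was lost at 500 bp, and 7 or 8 in PB120, where Nop10 was lost at 1e-20. Without PB120, 9 genes were bound in both remaining lines. The wider window, summits in the gene body and leaving out a line could only keep or raise the number of bound genes. The median percentile was 98.0 in PB115 when ranked by fragments, and 98.0 in PB119 and 96.4 in PB120 when ranked by −log10 p. The median log2 ratio of PB115 over PB119 reversed to 0.15 when scaled to peaks common to all 3 lines and was -0.30 by deposited fold. PB115 over PB120 was 0.25 and 0.93 in these settings, and PB119 over PB120 0.21 and 1.00. Why the scales differ was not tested. The motif count around summits was not run, since no genome was used here. No paired analysis was possible because each line had 1 ChIP library. Depth limits weak sites: a gene without a listed peak may still bind c-Myc below 19 to 24 fragments.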
